A study of Mus musculus with 5 samples.

Results

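DNA methylation is written, removed and read by small families of proteins, and the genes for 9 of them were followed here in mouse medulloblastoma. The genes were chosen by symbol: the methyltransferase genes Dnmt1, Dnmt3a and Dnmt3b, the maintenance cofactor gene Uhrf1, the dioxygenase genes Tet1, Tet2 and Tet3, and the reader genes Mbd2 and Mbd3. All 9 were among the 17739 genes of the deposited table, and all 9 averaged at least 5 on its log2 scale, as did 13691 genes in all. The samples were 5 RNA-seq libraries of cerebellar tumour cells from Math1-Cre;Gli2A mice, bred from Math1-Cre and R26;Gli2A parents and fed doxycycline from conception (embryonic day 0), with GLI2 active per the titles. Math1-Cre acts in granule neuron progenitors. The animals' ages are not given in the labels. The libraries carry the tumour numbers 1, 5, 8, 14 and 15. They form 1 group with no control, so genes were compared within tumours and no condition was compared with another. The labels do not say that each number is a separate animal, so errors over the 5 libraries may be partly technical.

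Values are log2 expression, read here as regularised-log values. Such values are corrected for the size of the library and not for the length of the transcript. They also pull weakly expressed genes towards their mean, so differences at low genes are understated. Medians over all genes lay between 8.51 and 8.58 in the 5 libraries. Of the 13691 genes with a mean of 5 or more, 0 had the same value in 2 libraries. The granule progenitor marker Zic1 averaged 15.08 ± 0.05 (SD, n = 5), and the progenitor transcription factor gene Atoh1 averaged 8.62 ± 0.67. Markers of other cells were present in every tumour as well. In RNA from mixed cells, fewer cells of a type and less RNA per cell cannot be told apart.

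In mammals, DNMT3A and DNMT3B place methyl groups on unmethylated CpG sites. DNMT1 copies the pattern to the new strand after replication, and UHRF1 brings it to sites methylated on the old strand only. TET enzymes oxidise 5-methylcytosine to 5-hydroxymethylcytosine and further forms, a step towards removal of the mark. MBD2 binds methylated CpG, whereas mammalian MBD3 has largely lost that binding. Each can serve as the MBD subunit of the chromatin remodelling complex NuRD, but not in the same complex. In the postnatal brain, DNMT3A also methylates cytosines outside CpG in neurons, and 5-hydroxymethylcytosine is abundant there.

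Promoters of Dnmt1 and Uhrf1 are shown first because 1 promoter window of each held a word typical of S-phase genes. RefSeq on GRCm38.p6 gave 13 start sites for the 8 members looked up, each with 250 bases before the start and 50 after. A window was searched on both strands for the E2F-like words TTTCCCGC, TTTCGCGC, TTTGCCGC and TTTGGCGC, E2F being the factor family of S-phase genes. These words were chosen with the tumour profiles known. Each word contains a CpG, and CpG-rich windows were commoner among the members than among all windows (below). Among 32851 windows of this length, whatever their CpG count, 2.26% held at least 1 such word. That share is not matched to the members for CpG. Of the 13 member windows 2 held such a word, 1 at Dnmt1 (chr9:20952574-20952873, minus strand) and 1 at Uhrf1 (chr17:56304063-56304362, plus strand). That Dnmt1 window held 2 copies, beginning at bases -219 and 34 from the start, and that Uhrf1 window 1 copy at base -185. Both genes also had other start sites, whose windows held none and are not printed. The window of Tet1, which shared its highest and lowest tumours with Dnmt1 and Uhrf1, held none. The window of Mbd3 (chr10:80399482-80399781, minus strand), the member of smallest spread, is printed for contrast and also held none. Capitals mark the E2F-like words.
Dnmt1: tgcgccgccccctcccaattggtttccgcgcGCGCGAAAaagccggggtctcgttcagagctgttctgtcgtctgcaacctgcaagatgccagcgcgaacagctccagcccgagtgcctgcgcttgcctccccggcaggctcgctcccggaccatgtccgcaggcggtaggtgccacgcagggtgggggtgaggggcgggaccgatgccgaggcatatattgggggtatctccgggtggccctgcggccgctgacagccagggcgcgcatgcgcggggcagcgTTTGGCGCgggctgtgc
Uhrf1: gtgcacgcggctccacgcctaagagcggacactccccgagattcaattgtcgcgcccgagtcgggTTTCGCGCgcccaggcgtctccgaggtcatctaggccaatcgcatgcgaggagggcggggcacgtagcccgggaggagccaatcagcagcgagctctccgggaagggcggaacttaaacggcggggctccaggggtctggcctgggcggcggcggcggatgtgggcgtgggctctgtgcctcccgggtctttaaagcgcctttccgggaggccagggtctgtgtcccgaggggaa
Mbd3: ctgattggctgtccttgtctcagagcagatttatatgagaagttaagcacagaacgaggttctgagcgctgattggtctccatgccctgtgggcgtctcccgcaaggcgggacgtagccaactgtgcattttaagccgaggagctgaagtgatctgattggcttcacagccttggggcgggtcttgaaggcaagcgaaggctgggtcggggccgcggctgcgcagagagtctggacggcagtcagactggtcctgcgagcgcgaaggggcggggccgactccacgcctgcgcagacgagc
The printed Dnmt1 and Uhrf1 windows held 33 CpG each and the Mbd3 window 22, against a median of 7 over all windows. Across the member windows the count ran from 2, at the most upstream start of Dnmt1, to 57 at Tet2, and 10 of 13 had at least 15 CpG, as did 34.6% of all windows. The GLI word GACCACCCA, searched on both strands, was in 0 of the 13 member windows and in 0.253% of all windows. The table does not show which start was used, and a word match is not evidence of binding.

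The maintenance genes Dnmt1 and Uhrf1 had the same highest and the same lowest tumour, and Tet1 shared both. Dnmt1 (GRCm38 chromosome 9, 20907209 to 20959888, minus strand) stood at 12.80 in tumour 1, 12.57 in tumour 5, 12.71 in tumour 8, 12.84 in tumour 14 and 12.67 in tumour 15. Its mean was 12.72 ± 0.11 (SD, n = 5). Uhrf1 (chromosome 17, 56303321 to 56323486, plus strand) stood at 12.001, 11.79, 12.15, 12.16 and 11.84 in tumours 1, 5, 8, 14 and 15, a mean of 11.99 ± 0.17. Tumour 14 was the highest and tumour 5 the lowest. The distance between those tumours was 1.21-fold for Dnmt1 and 1.30-fold for Uhrf1.

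The de novo methyltransferase genes each had 4 tumours close together and 1 apart. Dnmt3a (chromosome 12, 3806007 to 3914443, plus strand) was 11.36, 11.34, 11.31 and 11.33 in tumours 1, 8, 14 and 15 and 11.14 in tumour 5, with a mean of 11.29 ± 0.09. Without tumour 5 its SD was 0.017, over a range of 0.04. Dnmt3b (chromosome 2, 153649450 to 153687730, plus strand) was 7.89, 7.96, 7.96 and 7.85 in tumours 5, 8, 14 and 15 and 7.65 in tumour 1, with a mean of 7.86 ± 0.13. Without tumour 1 its SD was 0.052. The low tumour was therefore a different one for each gene.

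Of the TET genes, Tet2 and Tet3 were highest in tumour 8 and Tet1 in tumour 14. Tet3 (chromosome 6, 83362373 to 83459084, minus strand) stood at 11.85, 11.77, 12.03, 11.97 and 11.83 in tumours 1, 5, 8, 14 and 15. Tet2 (chromosome 3, 133463679 to 133545139, minus strand) stood at 10.03, 9.96, 10.23, 10.15 and 9.96 in the same order. Both were highest in tumour 8, then in tumour 14, and lowest in tumour 5, although Tet2 in tumours 5 and 15 differed only past the second decimal. Tet1 (chromosome 10, 62804570 to 62908996, minus strand) stood at 10.37, 10.31, 10.37, 10.51 and 10.43, highest in tumour 14. Their means were 11.89 ± 0.11 for Tet3, 10.07 ± 0.12 for Tet2 and 10.40 ± 0.08 for Tet1. Without tumour 14 the SD of Tet1 was 0.049.

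The reader genes varied least between tumours among the 9. Mbd3 (chromosome 10, 80392539 to 80399550, minus strand) lay between 11.42 in tumour 5 and 11.52 in tumour 1, with 11.51, 11.49 and 11.47 in tumours 8, 14 and 15. Mbd2, on chromosome 18, lay between 9.65 in tumour 8 and 9.78 in tumour 5, with 9.72, 9.70 and 9.71 in tumours 1, 14 and 15. Their SDs were 0.041 for Mbd3 and 0.048 for Mbd2. Without tumour 5 the SD of Mbd3 was 0.025, and the range of Mbd2 was 0.075 without tumour 5 and 0.081 without tumour 8, against 0.134 over all 5. Mbd2 was the only one of the 9 genes that was highest in tumour 5, against 24.1% of the 13691 genes averaging at least 5.

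**Figure D1:**
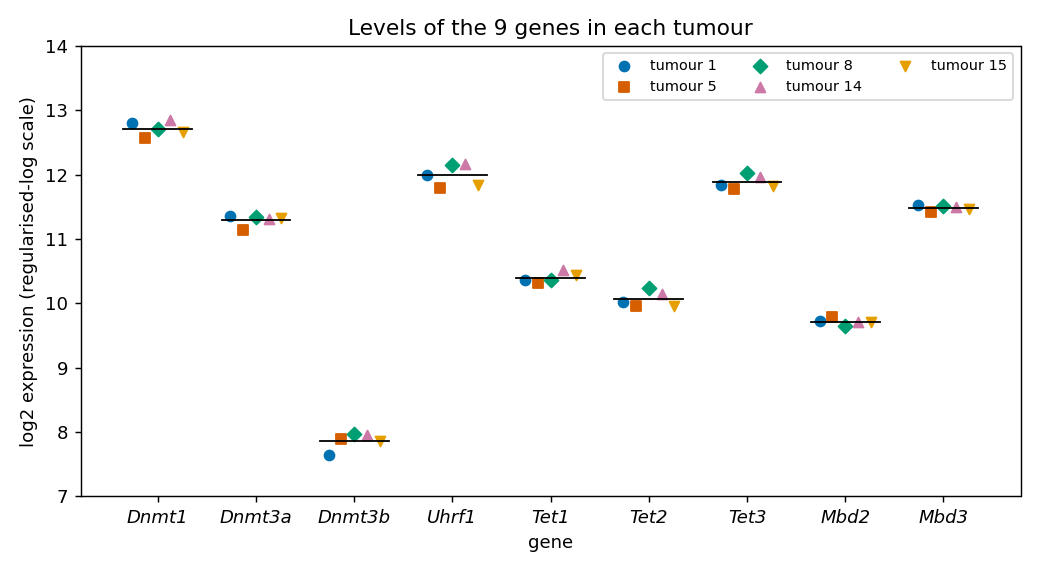
Log2 expression (vertical axis) of each of the 9 genes in tumours 1, 5, 8, 14 and 15, with a bar at the gene's mean. Tumour 5 is the lowest symbol for 7 genes, and tumour 1 is the lowest for Dnmt3b; heights of different genes are not corrected for length.

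Levels of the 9 genes were compared with each other only after subtracting log2 of the exon length in kilobases, from the union of exons in GENCODE M21. On that per-length scale Mbd3 stood highest, at 10.49 ± 0.04, above 97.1% of the genes with a length. Uhrf1 (9.90 ± 0.17) and Dnmt1 (9.83 ± 0.11) came next, and their values overlapped. Mbd2 (8.03 ± 0.05) and Tet3 (7.83 ± 0.11) also overlapped, with Mbd2 higher in 4 of 5 tumours. Below them, with no overlap between neighbours, lay Dnmt3a (7.24 ± 0.09), Tet1 (6.45 ± 0.08), Tet2 (5.99 ± 0.12) and Dnmt3b (5.51 ± 0.13). Dnmt3b was above 38.3% of genes, and Dnmt1 above 94.5%.

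The per-length differences between genes kept their sign in every tumour for 8 of 9 pairs. They were tested over 9 pairs by flipping signs, an exact permutation test (two-sided) whose smallest possible p with 5 tumours is 0.0625, so no pair could pass 0.05. Dnmt1 exceeded Dnmt3a by 2.60 ± 0.07 log2 units, and Dnmt3a exceeded Dnmt3b by 1.73 ± 0.17. The SD of the second difference was larger than that of either gene, and was 0.094 without tumour 1. Mbd3 exceeded Mbd2 by 2.46 ± 0.08, with an SD of 0.043 without tumour 5. Uhrf1 exceeded Uhrf2, a related gene whose product cannot replace UHRF1 in maintenance, by 2.15 ± 0.13, or by 1.12 with the length of the longest transcript. Tet3 exceeded Tet1 by 1.38 ± 0.10 and Tet2 by 1.84 ± 0.025, with SDs of 0.037 without tumour 8 and 0.010 without tumour 15 for these pairs in turn. Dnmt3a minus Tet3 was -0.59 ± 0.10. Each of these 7 differences had the same sign in 5 of 5 tumours (exact permutation p = 0.0625, adjusted 0.0703 over 9 pairs).

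For the pairs above, the length used changed the size of the difference but not its sign. With the longest transcripts Dnmt1 minus Dnmt3a was 2.14, Dnmt3a minus Dnmt3b 2.27 and Tet3 minus Tet1 1.89. The SDs over tumours do not cover this choice. For the other 2 pairs the sign of the mean difference also depended on length. Tet1 exceeded Tet2 by 0.46 ± 0.12 in 5 of 5 tumours (exact permutation p = 0.0625, adjusted 0.0703), but with the longest transcript of each gene the difference was -0.31. The union of exons is 15457 bases for Tet1 and 16870 for Tet2, and the longest transcripts are 14369 and 9179 bases. Dnmt1 minus Uhrf1 was -0.06 ± 0.11, above 0 in 2 of 5 tumours (exact permutation p = 0.375, adjusted 0.375), and 0.02 with the longest transcripts. Without tumour 8 it was -0.023, with an SD of 0.063, and the SD of Tet1 minus Tet2 was 0.060. The order of Dnmt1 and Uhrf1, and that of Tet1 and Tet2, therefore depended on the length used, whereas the other 5 genes kept their ranks.

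**Figure D2:**
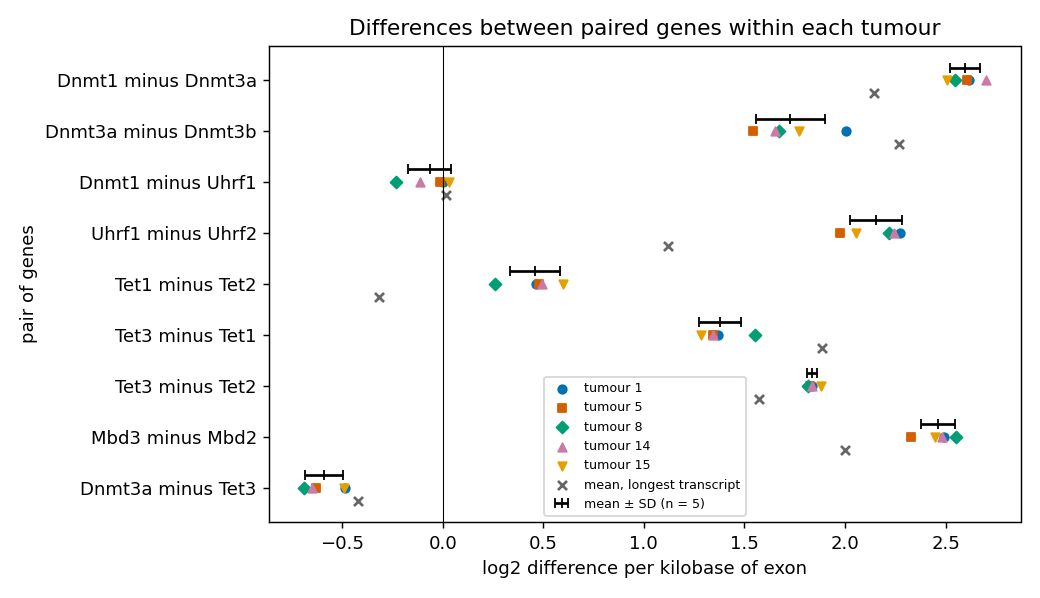
Differences in log2 level per kilobase of exon (horizontal axis) for 9 pairs of genes, 1 symbol per tumour, with the mean ± SD (n = 5) above and a cross for the mean with the longest transcript. The difference of Tet3 minus Tet2 varies only from 1.81 to 1.88, and the cross of Tet1 minus Tet2 lies below 0.

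The median spread between tumours of the 9 genes was close to that of all genes averaging at least 5. The median SD over the 9 was 0.108, against 0.109 over the 13691 genes averaging at least 5. The highest and lowest tumours were over 1.2-fold apart for 4 of 9 genes (Dnmt1, Dnmt3b, Uhrf1 and Tet2), and for 51.6% of the 13691 genes. Tet3 fell just under, at 1.1998-fold. With quantile normalization the count was 2 of 9 and the share of all genes 51.3%, and with columns centred on their medians 5 of 9 and 51.9%. Compared with genes whose mean lay within 0.5 log2 units, the SD of Uhrf1 was above 88.2% of 1181 genes. That of Mbd3 was above 11.7% of 1662 genes and that of Mbd2 above 11.9% of 2697. The other 6 lay between 41.5% (Tet1) and 68.5% (Tet3).

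**Figure D3:**
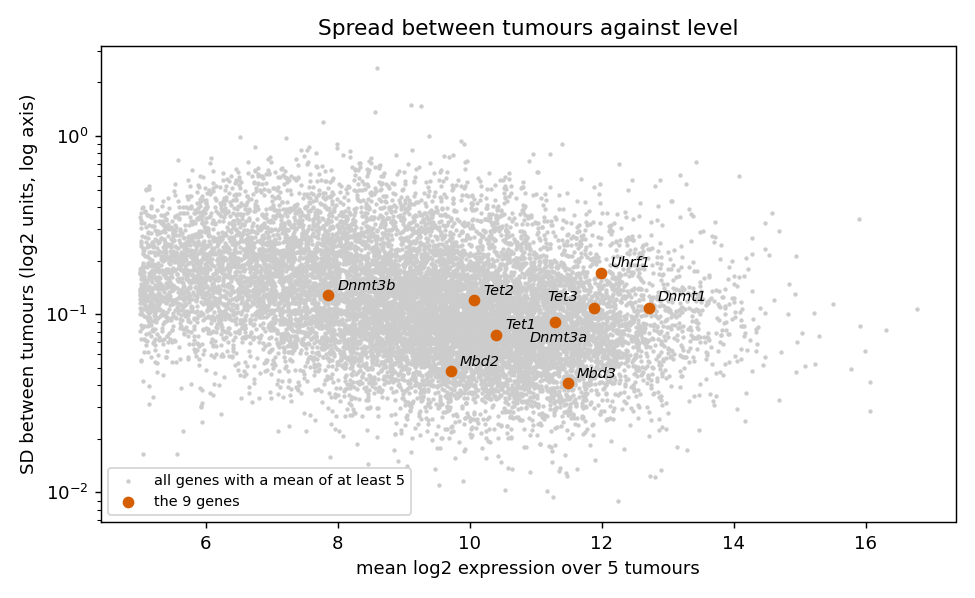
SD between the 5 tumours (vertical log axis, log2 units) against mean log2 expression for genes averaging at least 5 in grey and the 9 genes in colour. Uhrf1 (SD 0.17) lies in the upper part of the cloud at its level, and Mbd3 (0.041) and Mbd2 (0.048) in the lower part.

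The level of Uhrf1 varied less between tumours when taken relative to the DNA replication genes. The list held 14 genes, among them Mcm7, a subunit of the replicative helicase, at 12.56 ± 0.12. Its median was 11.61, 11.38, 11.67, 11.70 and 11.42 in tumours 1, 5, 8, 14 and 15. Uhrf1 minus that median was 0.39, 0.41, 0.48, 0.46 and 0.42 in the same tumours. The SD of this difference was 0.036, against 0.171 for Uhrf1 itself. Among the 13677 genes outside the replication list, 8 (0.0585%) had an SD that small after the subtraction, Uhrf1 included. That count depended on how the list was summarised: with its mean in place of its median the SD for Uhrf1 was 0.068, and 477 genes were at or below it. Leaving out 1 tumour gave an SD of 0.030 to 0.042 and a count of 9 without tumour 8, 26 without tumour 1, 37 without tumour 14, 78 without tumour 15 and 98 without tumour 5.

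For Dnmt1 the SD was 0.078 after the subtraction and 0.109 before it, and for Tet2 and Tet3 it also became smaller. For Dnmt3a, Dnmt3b, Tet1, Mbd2 and Mbd3 it became larger, up to 0.187 for Mbd2. The replication median itself had an SD of 0.150. Genes as flat as Mbd2 and Mbd3 could therefore only gain spread, whatever their profile. The SD became smaller for 10.2% of the genes outside the list. The distance of Dnmt1 from the replication median ran from 1.04 in tumour 8 to 1.25 in tumour 15. These comparisons, and the settings tried on them, were chosen after seeing the data and have no test.

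The genes whose profile was most like that of Uhrf1 were found by the root mean square difference between centred profiles over the 5 tumours. They were Mxd3, an MYC-network repressor expressed in S phase (distance 0.0106), Mybl2, a cell cycle transcription factor (0.0241), and Zgrf1, a DNA helicase gene (0.0242). Mxd3 stood at 9.64, 9.43, 9.82, 9.82 and 9.48 in tumours 1, 5, 8, 14 and 15, the same order of tumours as Uhrf1. No other member had an SD above 75% of genes of like level, so no like genes were sought for them by this rule. Between members, Tet3 ranked 12 of the 13690 other genes in closeness to Tet2, and Tet2 ranked 25 in closeness to Tet3. The rank of Tet3 was not stable, at 3 without tumour 15, 48 without tumour 14, 49 without tumour 1 and 102 without tumour 5 or tumour 8. In closeness to Uhrf1, Tet2 ranked 136, Tet3 181 and Dnmt1 605. A flat gene lies close to many others, so ranks of different genes are not comparable. These choices of rank were made after seeing the data.

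**Figure D4:**
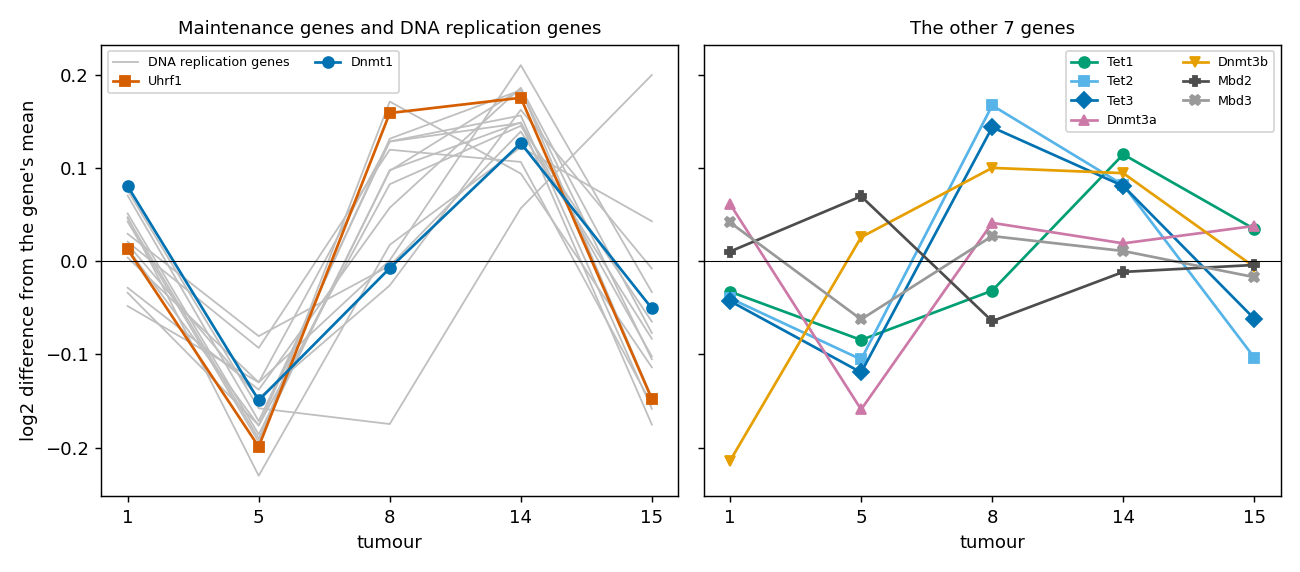
Log2 difference of each gene from its own mean (vertical axis) in the 5 tumours. On the left Uhrf1 and Dnmt1 are set among 14 DNA replication genes in grey, and on the right are the other 7 genes; lines only join the values of 1 gene, since tumours have no order. Uhrf1 lies within the grey lines in each tumour, and Tet2 and Tet3 both peak in tumour 8.

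Tumour 5 was the lowest for 7 of the 9 genes, all but Dnmt3b and Mbd2, and for 24.6% of the 13691 genes. Tumour 14 was the highest for 3 of 9 (Dnmt1, Uhrf1 and Tet1), and for 15.8% of genes. Tumour 8 was the highest for 3 of 9 (Dnmt3b, Tet2 and Tet3), and for 18.5% of genes. The drop in tumour 5, taken against the median of the other 4 tumours, was -0.28 for Uhrf1, -0.20 for Dnmt3a and -0.19 for Dnmt1, and -0.08 for Mbd3. When each tumour was set to its own replication list median, an alternative added after seeing the data, 0 of 9 genes were lowest in tumour 5 and 3 were highest there, against 2.22% and 57.4% of all genes. That scaling raises every gene alike in tumour 5, so these counts say nothing particular to the 9 genes.

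Other gene groups also shifted in tumour 5, which was the highest tumour for 24.1% of the 13691 genes and the lowest for 24.6%. The DNA replication list was lowest there for 9 of 14 genes and the cell cycle list for 8 of 10, with the proliferation marker Mki67 at 13.78 there and 13.92 to 14.21 elsewhere. Granule progenitor genes were mixed. Gli1, Mycn and Ccnd1, 3 of 7, reached their minimum in tumour 5, against 2 in tumour 1 and 2 in tumour 15. Ccnd1 stood at 12.59 in tumour 5 and 13.20 to 13.52 elsewhere, and Gli1 at 11.92 against 12.18 to 12.53. Summed, the progenitor list came to 16.14 in tumour 5, 16.18 in tumours 1 and 15, and at most 16.32. All 8 oligodendrocyte markers, led by Mbp, peaked in tumour 5, and their summed level was 15.91 there and 14.52 to 15.54 elsewhere, on the log2 scale. Microglia and macrophage markers were highest there for 8 of 9 genes, led by Csf1r, with a summed level of 13.66 against 12.82 to 13.10. Mature granule neuron markers were highest there for 6 of 8 genes (13.70 against 13.30 to 13.58), endothelial markers for 4 of 6 (12.68 against at most 12.37) and astrocyte and Bergmann glia markers for 3 of 6 (15.31 against 14.89 to 15.18). Such sums weigh the strongest gene most: Zic1 in the progenitor list and Rbfox3, highest in tumour 15, in the mature granule list. The median of the mature granule list was 8.76 in tumour 5 and 7.34 to 7.90 elsewhere. None of the markers in these lists was near the bottom of the scale, the lowest mean being 6.27 in the microglia list. The part of these shifts in the levels of the 9 genes was not tested.

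Of 60 further genes in 6 lists tied to the same process, 57 were in the table and 54 had a mean of at least 5. Of those 54, 17 were lowest in tumour 5 (24.6% of all genes), 25 were highest in tumour 14 (15.8% of all genes), and 21 had their highest and lowest tumours over 1.2-fold apart (51.6% of all genes). The values that follow are levels on the table's scale and are not compared between genes. Partners of methylation included Usp7, a deubiquitinase that binds DNMT1 and UHRF1 (12.53 ± 0.07), Lig1, the replicative DNA ligase whose methylated form UHRF1 binds (11.56 ± 0.15), and Trdmt1, a tRNA methyltransferase of the DNMT family (7.34 ± 0.07). Lig1 had the same highest and lowest tumours as Uhrf1, 11.75 in tumour 14 and 11.37 in tumour 5.

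Further genes listed as readers included Mbd6 (12.31 ± 0.15) and Zbtb38 (8.26 ± 0.09). Whether their products bind methylated DNA was not examined. Mbd6 was highest in tumour 5, at 12.51. Binders of unmethylated CpG included Cxxc5 (12.54 ± 0.11), the histone methyltransferase gene Kmt2a (12.35 ± 0.09) and Cxxc4 (8.56 ± 0.14).

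The NuRD subunit genes, partners of MBD2 and MBD3, had SDs between 0.039 and 0.184. All 12 had a mean of at least 5, and the median SD of the list was 0.072. Chd4 and Chd3, the remodelling ATPase genes, averaged 13.79 ± 0.07 and 13.42 ± 0.12, and Chd5, an ATPase gene of neurons, 7.02 ± 0.18. Among genes of like level, the SD was above 22.7% for Chd4, 66.9% for Chd3 and 57.2% for Chd5. Of the 12 subunit genes, 7 were lowest in tumour 5, against 24.6% of all genes, and 6 were highest in tumour 14, against 15.8%.

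In the methyl donor list Mat2a, which makes S-adenosylmethionine, averaged 12.56 ± 0.09 and was highest in tumour 14. Shmt2, which feeds one-carbon units from serine in mitochondria, averaged 11.84 ± 0.12 and was also highest there. Bhmt, a betaine-using enzyme gene best known from liver, averaged 2.99 ± 0.09.

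Among partners of demethylation, Ogt, the O-GlcNAc transferase that binds TET proteins, averaged 12.50 ± 0.12. Idh2, whose product makes the TET cosubstrate 2-oxoglutarate, averaged 11.06 ± 0.08. The Gadd45 genes, named after their values were seen, differed most between tumours in this list: Gadd45a spanned 1.75-fold, Gadd45b 1.75-fold and Gadd45g 1.54-fold. Gadd45a reached 10.91 in tumour 1, and the other 4 tumours lay between 10.09 and 10.34.

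Tdg, the glycosylase that removes oxidised methylcytosine, stood at 3.07 ± 0.03. Of its 50-base words, 41.2% also occur in transcripts of other genes in GENCODE M21, 29.4% in the pseudogene Tdg-ps alone, so its value depends on how shared reads were counted, which the sources used here do not give. The same measure was 15.4% for Uhrf1, nearly all of it in the pseudogene Gm5648 (14.7%), and 9.81% for Dnmt3b, all of it in the related gene Dnmt3c. It was under 1% for the other 7 members. Exons of an antisense gene overlapped 0.799% of the exon bases of Dnmt3a and 0.255% of those of Tet2, and no other member had an overlap.

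Germline genes that DNA methylation keeps silent in mouse somatic cells mostly averaged under 5. Of 14 listed, 6 were in the table and 1, Sycp3, of the meiotic chromosome axis, had a mean of at least 5, at 5.42 ± 0.08. The germ cell helicase gene Ddx4 averaged 3.51 ± 0.06, and Tex19.1 averaged 0.48 ± 0.05. The other 8 were not analysed here. The summed log2 level of this list ran from 5.94 in tumour 1 to 6.06 in tumour 5. Sycp3 makes up most of that sum, and differences at the other, low genes are understated. The sum therefore cannot show whether a tumour stood out. DNA methylation itself was not measured.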

How the data were processed

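Strand-specific mRNA libraries were made from papain-digested tumour cells, per the labels' protocols. The deposited table gives 1 log2 value per gene and library. The submitters' processing notes name STAR 2.4.1, featureCounts from Subread 1.4.6, DESeq2, mm10 and GRCm38. The sources used here give neither the annotation nor the strand setting nor the filter on genes. The deposited log2 values were read as regularised-log values from the table's short name, which no source states outright. Of 7 columns, 2 matched no sample and were not used, although they may have entered the transformation. Depth is unknown.

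Gene positions and lengths came from GENCODE M21 (97.5% of symbols matched 1 gene), and promoters from RefSeq. Paired differences were tested by exact sign-flip permutation, with Benjamini-Hochberg adjustment. Members, lists and pairs were chosen with earlier results of these data known. Named genes were the members, genes of the pairs, the 2 highest and 1 lowest of each methylation list on the table's scale, uncorrected for length, the highest of each marker list, and the 3 nearest profiles. A gene that this rule names in the list of readers is not reported here. Alternatives were other scalings, lengths, filters and windows, and leaving out each tumour. The steps were tested on simulated data. Python 3.11.15, numpy 2.4.6 and pandas 2.3.3 were used.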

Additional observations from a re-analysis of the deposited data

Results flagged for a closer look

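Dnmt3a stood apart in tumour 5, at 11.14 against 11.31 to 11.36 in the other 4 tumours. The gap to the nearest tumour was 0.809 of the whole range, above the critical value of 0.71 for 5 samples. Of 18 sets of values checked, the 9 genes and 9 paired differences, this was the only 1 past that value, and chance flags about 1 in 20.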

How the results depend on the processing

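Every mean level moved by less than its SD under each scaling and without each tumour, by at most 0.05. Centring leaves a mean unchanged, and leaving out 1 of 5 values cannot move it by a whole SD. Only quantile normalization could have moved a mean further. Dnmt1 minus Uhrf1 was 0.73 with no length subtracted and 0.017 with the longest transcript, and Tet1 minus Tet2 was -0.31 with the longest transcript. These reversals follow from the lengths themselves. The other 7 pairs kept their sign under both lengths, and all 9 kept it without each tumour in turn. Where every tumour had the same sign, the second result was fixed in advance. Only Dnmt1 minus Uhrf1 could have changed sign without a tumour. With quantile normalization 2 genes were over 1.2-fold apart, and 5 with columns centred on their medians, against 4. With quantile normalization 1 gene each was highest in tumours 1 and 15. With columns centred on their medians, 1 gene was lowest in tumour 15. The cause was not tested. Centred on the replication list, an alternative added after seeing the data, 0 genes were highest in tumour 1, 3 in tumour 5, 1 in tumour 8, 0 in tumour 14 and 5 in tumour 15, and 4 were lowest in tumour 1, 0 in tumour 5, 3 in tumour 8 and 2 in tumour 14. That scaling moves all genes of a tumour alike. The shares of all genes were computed only for tumour 5, at 57.4% highest and 2.22% lowest. The counts for the other tumours therefore say nothing particular to the 9 genes. Among settings also added after seeing the data, subtracting the replication list mean gave an SD of 0.068 for Uhrf1 and 477 genes at or below it, against 0.036 and 8 with the median. Quantile normalization gave 28 genes and put Tet3 at rank 39 in closeness to Tet2, against 12. Leaving out 1 tumour gave 9 to 98 genes and ranks of 3 to 102. Leaving out 1 tumour moved the SD of 4 genes and the range of 6 by over 1.5 times; the Dnmt1 range was 0.18 without tumour 5. It moved the SD of 6 of the 9 paired differences by over 1.5 times, and Dnmt1 minus Uhrf1 ran from -0.089 to -0.023. With 5 libraries of 1 group and no counts, neither counting error nor a difference from normal cerebellum can be given.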
